A study of Homo sapiens with 12 samples.

Results

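ATF4 target genes of amino acid supply were examined in HOS cells, an established human osteosarcoma line, as 38 named genes found by their GENCODE 29 symbols among the 25141 genes of the count table. They comprised 11 stress and transcription factors, 9 enzymes of amino acid synthesis, 7 transporters, 9 cytosolic tRNA synthetases and 2 further targets, VLDLR and STC2. Of these, 37 had enough counts to be tested and ASNS did not. The study compared HOS cells with raised or lowered CIN85, an adaptor protein encoded by SH3KBP1, in 4 groups of 3 RNA-seq libraries. Cells labelled upCIN85 were a geneticin-resistant pool, not a clone, that carried a plasmid for full-length CIN85 (pRc/CMV2-Rukl), and Mock cells were a pool selected the same way with the empty vector. Cells labelled siCIN85 had received a mixture of siRNAs against CIN85 and siNeg cells a non-targeting siRNA.

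ATF4 is a transcription factor whose protein is made when the initiation factor eIF2 is phosphorylated, for instance when amino acids run short or unfolded proteins accumulate in the endoplasmic reticulum. It raises the transcription of genes that make, import and load amino acids onto tRNA, and of other transcription factors such as DDIT3 (CHOP) and ATF3. Serine synthesis from a glycolytic intermediate by PHGDH, PSAT1 and PSPH, and the mitochondrial one-carbon enzymes SHMT2 and MTHFD2, belong to this programme, which many tumour cells use for growth.

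ATF4 binds as a dimer with a C/EBP protein, and a core of its composite element is written TGATGNAA. Human RefSeq promoter windows (GRCh38.p14, 250 bases before to 50 after each annotated start) were found for 33 of the 38 genes and searched for these letters on both strands. The motif stood in 13 of the 33, or 39.4%, against 4.46% of 27305 RefSeq genes. Counted by window, since a gene can have several, 13 of the members' 52 windows held it, or 25%, against 3.62% of 35116 windows. By class it stood in 3 of 11 stress factors, 1 of 6 synthesis enzymes, 4 of 6 transporters, 5 of 8 tRNA synthetases and 0 of 2 further targets. The genes had been picked as ATF4 targets, so this is a description of the list. The 8 stretches below are those of the matching genes with the smallest P in upCIN85 versus Mock, shown because they place the element in stress factors, transporters and synthetases alike. Capitals mark the match, each stretch is read 5′ to 3′ on the gene's strand, and TTNCATCA is the motif on the other strand.
CHAC1 (chr15:40953251-40953280, plus strand): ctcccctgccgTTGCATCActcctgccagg
ATF3 (chr1:212565205-212565234, plus strand): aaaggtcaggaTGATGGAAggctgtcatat
CEBPG (chr19:33374060-33374089, plus strand): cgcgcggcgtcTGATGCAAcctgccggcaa
SLC1A4 (chr2:64989381-64989410, plus strand): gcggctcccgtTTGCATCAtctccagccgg
SLC1A5 (chr19:46784893-46784922, minus strand): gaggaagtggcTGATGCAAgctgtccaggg
GARS (chr7:30594834-30594863, plus strand): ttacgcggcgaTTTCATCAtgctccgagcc
AARS (chr16:70289675-70289704, minus strand): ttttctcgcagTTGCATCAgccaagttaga
MARS (chr12:57488053-57488082, plus strand): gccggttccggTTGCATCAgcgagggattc
Of the 8, 6 read TGATGCAA, or TTGCATCA on the other strand. A match is not evidence of binding. The 12 tested genes with a match had a median log2 fold change (log2FC) of 0.21 in upCIN85 versus Mock, and the 20 with a window but no match had 0.33.

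Total counts were 5334731 to 6049458 per library in Mock and upCIN85 and 3540641 to 4174860 in siNeg and siCIN85. Levels are given in CPM, which scales each count to the TMM-normalized total of its library. SH3KBP1 stood at 85.5, 87.2 and 82.6 CPM in siNeg and 3.88, 8.97 and 9.77 CPM in siCIN85, a log2FC of -3.51 ± 0.21 (SE; adjusted P = 5.09e-08, edgeR quasi-likelihood test with Benjamini-Hochberg adjustment, n = 3 per group). In the libraries labelled upCIN85 it stood at 71.0, 90.04 and 82.8 CPM beside 76.6, 82.8 and 73.0 CPM in Mock, a log2FC of 0.07 ± 0.16 (adjusted P = 0.887 in the same test). SH3KBP1 counts were thus not higher in the upCIN85 libraries. CIN85 protein, which the study measured, was not analysed here, and whether plasmid transcripts are counted by this 3′ end method is not given in the sources used here. The study checked the resistant pool for CIN85 by western blotting and reports that HOS upCIN85 cells overexpressed the full-length form. That report concerns protein and not these libraries. Within the counts, directions drawn from the upCIN85 libraries rest on the label. The mesenchymal markers VIM (434 to 642 CPM), SPARC (354 to 779 CPM) and COL1A1 (337 to 1243 CPM) were present in every library. Of the osteoblast genes, RUNX2 stood at 7.23 to 38.8 CPM and ALPL reached at most 3.76 CPM, whereas SP7 and BGLAP had no row in the count table. The epithelial genes KRT18, EPCAM, KRT8 (33.5 to 81.3 CPM) and CDH1 (12.8 to 34.15 CPM) were present. Of the blood markers PTPRC and CD3E held 1 count each over 12 libraries, CD14 held 75, with 4 to 9 per library, and HBB had no row. Some of these markers moved with the groups, and not all in the same direction. SPARC was lower in upCIN85 (386.9 to 459.2 CPM) than in Mock (505 to 577 CPM), without overlap. Its levels were 468 to 778.7 CPM in siNeg and 353.6 to 539.5 CPM in siCIN85, with overlap. ALPL stood at 0.849 to 1.05 CPM in Mock and 2.80 to 3.76 CPM in upCIN85 (log2FC 1.76 ± 0.39), on 5 to 23 reads per library. It passed the filter on low counts only through the upCIN85 libraries, where it was high. A P-value for ALPL therefore cannot serve as a test of that difference, and none is given. The collagen gene COL1A2 stood at 41.9 to 84.8 CPM in Mock, 62.9 to 213 CPM in upCIN85, 46.7 to 53.7 CPM in siNeg and 18.8 to 23.5 CPM in siCIN85. Its log2FC in upCIN85 was 1.35 ± 0.31 (adjusted P = 0.0439, edgeR, and 0.111 to 0.253 without Mock replicate 2 or 3 or upCIN85 replicate 1 or 3), and in siCIN85 -1.26 ± 0.36 (adjusted P = 0.101, and 0.00339 with the replicate number as a block). COL1A1 had log2FC of 0.56 ± 0.19 (adjusted P = 0.165) and -0.71 ± 0.20 (adjusted P = 0.0903, and 0.00230 with the block). The part of these markers in the results that follow was not tested.

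In upCIN85 versus Mock, 32 of the 37 tested genes lay above Mock and 5 below, with a median log2FC of 0.27, whereas 51.1% of all 12542 genes lay above Mock with a median of 0.0072. One gene, YARS, passed an adjusted P of 0.05, where 1.23% of all genes did. Most of the genes thus lay slightly above Mock, and a single one passed the test without a block. At an unadjusted P of 0.05, 19 of the 37 were higher (6.64% of all genes were) and 1 was lower (7.85% of all genes). All 3 upCIN85 libraries lay above all 3 Mock libraries for 11 of the 37 (9.74% of all genes) and below them for 0 (11% of all genes). These shares of all genes also stand beside the counts of each class below. The members were chosen with earlier results of these data known, so the counts describe the list and do not test it. The number past the adjusted threshold was 0 without Mock replicate 1, Mock replicate 2 or upCIN85 replicate 3, it was 4 without upCIN85 replicate 1 and 5 without upCIN85 replicate 2. Leaving out 1 library moved the share of all genes past the threshold between 0.199% and 2.07%. With the replicate number fitted as a block in each experiment, 17 of the 37 passed (16 higher and 1 lower), beside 8.25% of all genes. In that edgeR fit the adjusted P was 7.06e-05 for CHAC1, 0.0028 for ATF4, 0.00287 for SESN2, 0.000172 for PSPH and 0.00396 for YARS. It was 0.0089 for STC2, the lower one. The block pairs Mock with upCIN85, which was not taken as paired. In bulk RNA, a change in all cells and a change in the share of cells that express a gene cannot be told apart.

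**Figure D1:**
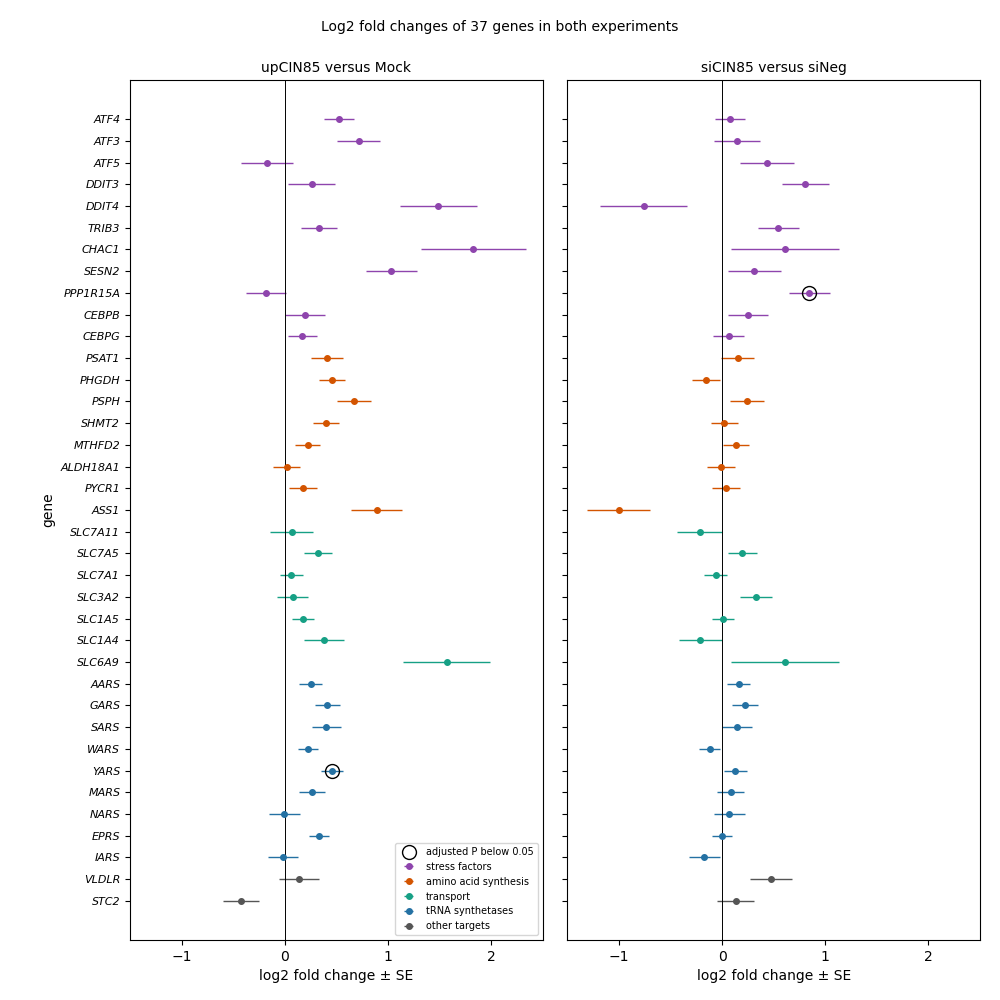
Log2 fold changes (x axis, points) with standard errors (bars) of the 37 tested genes (y axis), coloured by class, for upCIN85 versus Mock (left) and siCIN85 versus siNeg (right), n = 3 libraries per group. On the left 32 points lie above 0 and YARS is ringed as past the adjusted threshold, and on the right 28 lie above 0 and PPP1R15A is ringed.

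Of the 9 tRNA synthetases, which load amino acids onto their tRNAs, 7 lay above Mock, all 7 at an unadjusted P of 0.05, and the class median log2FC was 0.27. In 5 of them the libraries did not overlap. Summed over the class, Mock reached 1224 ± 66.6 CPM (SD, n = 3 libraries), compared with 1470 ± 144 CPM for upCIN85. YARS, the tyrosyl-tRNA synthetase, stood at 117, 120.0 and 121 CPM in Mock and 145, 186 and 162 CPM in the libraries labelled upCIN85. Every upCIN85 library lay above the narrow Mock range. YARS rose by a log2FC of 0.46 ± 0.11 (1.38-fold; adjusted P = 0.0439, edgeR quasi-likelihood test). The call did not survive every omission of a library: the adjusted P was 0.113, 0.178 and 0.132 without Mock replicates 1, 2 and 3, and 0.0982 and 0.159 without upCIN85 replicates 2 and 3.

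GARS, the glycyl-tRNA synthetase with the motif shown above, stood at 144, 124 and 131 CPM in Mock and 158, 186 and 187 CPM in upCIN85 (log2FC 0.41 ± 0.12, adjusted P = 0.0997). EPRS, which loads glutamate and proline, stood at 201, 211 and 209 CPM in Mock and 237, 289 and 258 CPM in upCIN85 (log2FC 0.33 ± 0.10, adjusted P = 0.0911). SARS, the seryl-tRNA synthetase, stood at 60.6, 71.1 and 83.1 CPM in Mock and 81.5, 111 and 91.6 CPM in upCIN85 (log2FC 0.40 ± 0.14, adjusted P = 0.164). GARS and EPRS did not overlap between the groups, whereas in SARS 1 upCIN85 library lay just under the highest Mock library. None of these 3 passed the adjusted threshold in this edgeR test. AARS and WARS, for alanine and tryptophan, also did not overlap, with log2FC of 0.25 ± 0.11 and 0.22 ± 0.10, and MARS, for methionine, had 0.27 ± 0.13. NARS (log2FC -0.0061 ± 0.15) and IARS (-0.014 ± 0.15), for asparagine and isoleucine, lay at the Mock level, although both carry the motif in their promoter windows. IARS stood at 98.6, 96.6 and 118 CPM in Mock and 102, 93.5 and 115 CPM in upCIN85, so that its groups interleaved.

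All 8 tested enzymes of amino acid synthesis lay above Mock in the upCIN85 libraries, 5 of them at an unadjusted P of 0.05 and 3 with no overlap, with a class median log2FC of 0.40. None passed the adjusted threshold in edgeR without a block (lowest adjusted P 0.0513), whereas DESeq2 called PSPH (adjusted P = 0.0134) and PHGDH (0.0492). Outside this class DESeq2 also called SESN2 (0.00802), YARS (0.0100) and ATF4 (0.0307), beside 2.15% of all genes it tested. PSPH, which completes serine synthesis, stood at 59.3, 66.0 and 86.1 CPM in Mock and 96.5, 97.1 and 143 CPM in upCIN85. The highest Mock library lay under the lowest upCIN85 library (log2FC 0.67 ± 0.16, adjusted P = 0.0513 in the edgeR test). PHGDH, the first enzyme of that route, stood at 63.2, 60.4 and 61.9 CPM in Mock and 74.1, 96.6 and 84.3 CPM in upCIN85 (log2FC 0.46 ± 0.13, adjusted P = 0.0817). Here too no library overlapped. PSAT1, the aminotransferase between them, stood at 465, 445 and 623 CPM in Mock and 596, 685 and 751 CPM in upCIN85 (log2FC 0.41 ± 0.16, adjusted P = 0.220). Its upCIN85 replicate 1 lay below Mock replicate 3.

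SHMT2, the mitochondrial serine hydroxymethyltransferase that feeds one-carbon units from serine, stood at 91.6, 103 and 119 CPM in Mock and 120.1, 143 and 152 CPM in upCIN85, a log2FC of 0.40 ± 0.13 (adjusted P = 0.125). Its groups lay side by side without overlap. MTHFD2, the next enzyme of that route, had a log2FC of 0.22 ± 0.12 (adjusted P = 0.437) with overlapping libraries. The proline enzymes PYCR1 and ALDH18A1 had log2FC of 0.18 ± 0.14 and 0.019 ± 0.13. ALDH18A1, at 85.8, 86.6 and 83.8 CPM in Mock and 93.4, 73.7 and 92.7 CPM in upCIN85, was the member of the class nearest to Mock.

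ASS1, argininosuccinate synthase of the arginine route, stood at 14.9, 11.0 and 11.4 CPM in Mock and 24.5, 14.4 and 30.4 CPM in upCIN85, the largest log2FC of the class (0.89 ± 0.25, adjusted P = 0.0783). Its upCIN85 replicate 2 lay within the Mock range and the other upCIN85 libraries above it. ASNS, asparagine synthetase and a textbook ATF4 target, could not be assessed: it held 37 counts over the 12 libraries and at most 8 in one. All of the last 500 exonic bases of ASNS, where a 3′ end method reads, are shared with exons of AC079781.5 on the same strand, which held 2 counts. How reads in exons of both genes were counted is not given in the sources used here.

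All 7 transporters lay above Mock in upCIN85, with a class median log2FC of 0.18, 2 of them at an unadjusted P of 0.05 and 1 without overlap, and none passed the adjusted threshold in this edgeR test. SLC6A9, a glycine transporter, stood at 1.51, 1.53 and 3.33 CPM in Mock and 4.02, 5.88 and 9.18 CPM in upCIN85, a log2FC of 1.57 ± 0.42 (adjusted P = 0.0726). These levels rest on 8 to 19 reads per Mock library and 23 to 54 per upCIN85 library. In SLC6A9 73.0% of the last 500 exonic bases lie opposite exons of CCDC24, and whether counting used the strand is not given in the sources used here. SLC7A5, the light chain of the large neutral amino acid carrier, stood at 462, 343 and 297 CPM in Mock and 492, 463 and 424 CPM in upCIN85 (log2FC 0.32 ± 0.13, adjusted P = 0.266). Only Mock replicate 1 reached the upCIN85 range. Its heavy chain partner SLC3A2 had a log2FC of 0.08 ± 0.15, and the cystine carrier SLC7A11 had 0.07 ± 0.21. The neutral amino acid carriers SLC1A4 and SLC1A5 had 0.38 ± 0.19 and 0.18 ± 0.11. SLC7A1, the cationic amino acid carrier, had the lowest value of the class, with 184, 180 and 160 CPM in Mock against 170, 210 and 167 CPM in upCIN85 (0.06 ± 0.11).

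Of the 11 stress and transcription factors, 9 lay above Mock, 5 at an unadjusted P of 0.05, and only 2 (ATF3 and TRIB3) did so without overlap. ATF4 itself stood at 348, 411 and 376 CPM in Mock and 405, 609 and 620.1 CPM in upCIN85 (log2FC 0.53 ± 0.14, adjusted P = 0.0735 in edgeR and 0.0307 in DESeq2). CHAC1, an enzyme that breaks down glutathione, stood at 6.58, 15.5 and 14.9 CPM in Mock and 8.04, 43.0 and 80.9 CPM in upCIN85 (log2FC 1.83 ± 0.51, adjusted P = 0.0820). SESN2, a leucine-binding inhibitor of mTORC1, stood at 28.2, 26.3 and 22.6 CPM in Mock and 26.4, 65.7 and 65.5 CPM in upCIN85 (log2FC 1.03 ± 0.25, adjusted P = 0.0511 in edgeR and 0.00802 in DESeq2). In all 3 genes upCIN85 replicate 1 sat in the Mock range and the other replicates well above it.

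**Figure D2:**
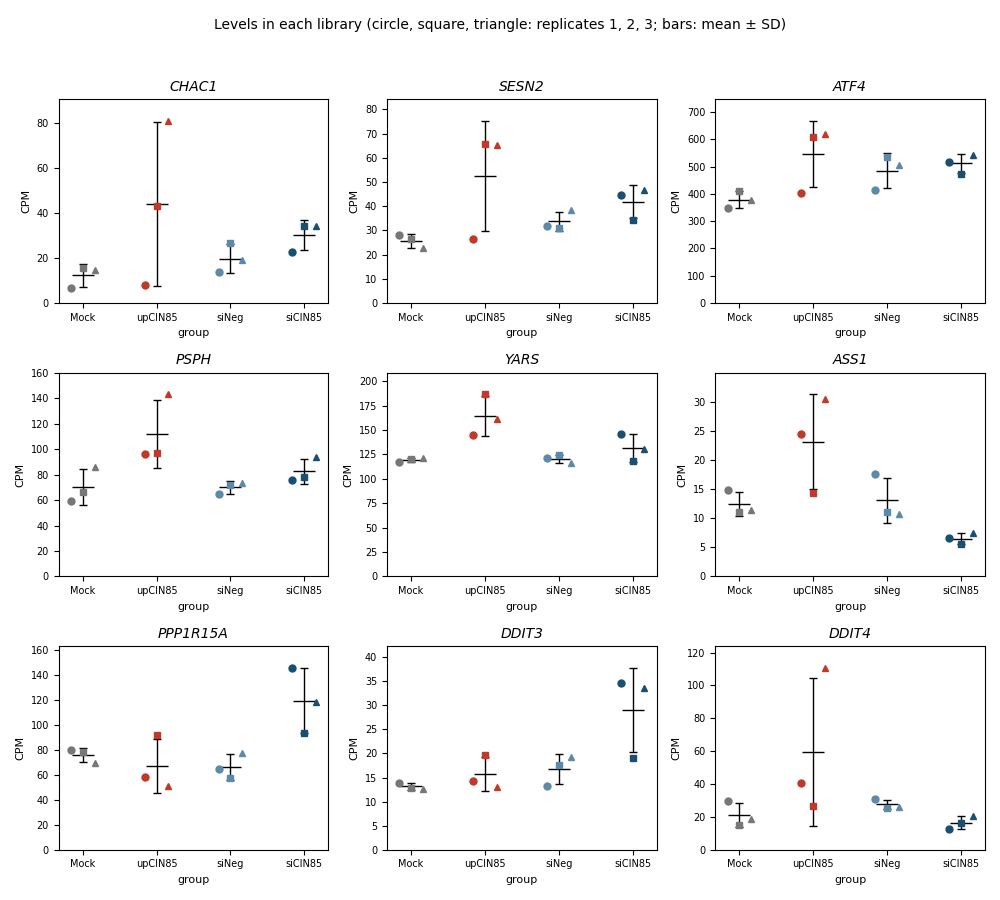
Levels in CPM (y axis, from 0) of 9 genes in each library by group (x axis), with circles, squares and triangles for replicates 1, 2 and 3 and bars for mean ± SD (n = 3). In the upCIN85 group CHAC1, SESN2 and ATF4 split into replicate 1 at the Mock level and replicates 2 and 3 above it, whereas YARS and PSPH lie above Mock in all 3 libraries, and in siCIN85 PPP1R15A is higher and ASS1 lower than in every siNeg library.

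DDIT4 (REDD1), another inhibitor of mTORC1, stood at 29.5, 15.3 and 18.9 CPM in Mock and 40.7, 26.8 and 111 CPM in upCIN85, a log2FC of 1.49 ± 0.37 (adjusted P = 0.0580). Its value was set largely by upCIN85 replicate 3. ATF3, a stress-induced bZIP factor, stood at 9.03, 10.9 and 8.42 CPM in Mock and 14.0, 12.6 and 20.1 CPM in upCIN85, with no overlap (log2FC 0.72 ± 0.21, adjusted P = 0.0893). TRIB3, a pseudokinase that restrains ATF4, had a log2FC of 0.33 ± 0.18. The bZIP factors DDIT3 (0.26 ± 0.23), CEBPB (0.20 ± 0.19) and CEBPG (0.17 ± 0.14) lay above Mock with overlapping libraries and adjusted P of 0.638 or more. Below Mock lay ATF5, another target that ATF4 induces (log2FC -0.18 ± 0.25), and PPP1R15A (GADD34), which returns eIF2 to its active form. PPP1R15A stood at 79.6, 78.4 and 69.5 CPM in Mock and 58.2, 91.3 and 50.8 CPM in upCIN85 (log2FC -0.18 ± 0.19). The summed level of the class was 729 ± 26.6 CPM in Mock and 1011 ± 245 CPM in upCIN85.

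Of the further targets, STC2, a secreted stanniocalcin, stood at 627, 681 and 648 CPM in Mock and 350.2, 659 and 448 CPM in upCIN85 (log2FC -0.42 ± 0.18, adjusted P = 0.268). It was the most negative of all 37 values and the only member lower at an unadjusted P of 0.05. VLDLR, a lipoprotein receptor, had a log2FC of 0.14 ± 0.19.

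The 3 upCIN85 libraries differed in how far the classes stood from Mock. Taken as the median over genes of log2(CPM + 1) minus the Mock mean, the stress factors stood at 0.10 in replicate 1, 0.39 in replicate 2 and 0.56 in replicate 3. Amino acid synthesis stood at 0.22, 0.44 and 0.49, and the tRNA synthetases at 0.18, 0.44 and 0.33. In each of these classes replicate 1 was the lowest. Transport stood at -0.014, 0.37 and 0.18, so that replicate 1 lay at the Mock level there. For comparison, the Mock libraries ranged from -0.11 to 0.15 over the 4 classes.

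**Figure D3:**
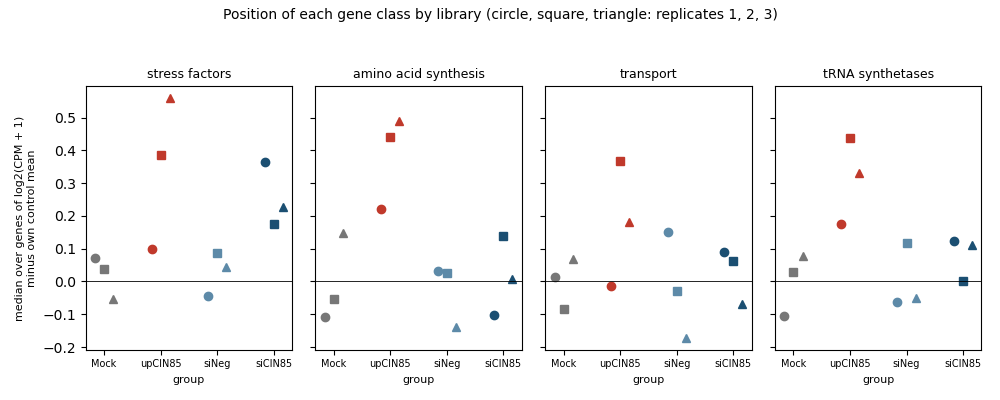
Median over the genes of a class of log2(CPM + 1) minus the mean of the own control group (y axis), for each library (circles, squares and triangles for replicates 1, 2 and 3) by group (x axis). In amino acid synthesis and tRNA synthetases all 3 upCIN85 libraries lie above Mock, and in stress factors all 3 siCIN85 libraries lie above siNeg.

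In siCIN85 versus siNeg, 28 of the 37 tested genes lay above siNeg and 9 below, with a median log2FC of 0.13, against 49.2% of all genes above siNeg and a median of -0.0052. One gene, PPP1R15A, passed the adjusted threshold, as 1.04% of all genes did. At an unadjusted P of 0.05, 5 were higher (7.55% of all genes) and 1 lower (8.15% of all genes). Libraries lay entirely above siNeg for 6 genes (9.91% of all genes) and entirely below for 2 (10.2% of all genes). The replicate number was also fitted as a block, since same-numbered libraries of this experiment deviated together. With that block, which also paired Mock with upCIN85, 4 of the 37 passed (PPP1R15A, DDIT3 and ATF5 higher and ASS1 lower), but so did 7.72% of all genes. With the block in the knockdown alone, 2 passed, PPP1R15A and DDIT3, beside 3.42% of all genes. The calls of ATF5 and ASS1 thus rested on the block in Mock and upCIN85 as well. The count without a block was 0 without siNeg replicate 1, siNeg replicate 2, siCIN85 replicate 1 or siCIN85 replicate 3, and 2 without siCIN85 replicate 2. The median log2FC was 0.084 without siNeg replicate 1 and 0.087 without siCIN85 replicate 1.

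The stress factors had the highest class median in the knockdown, a log2FC of 0.31, with 10 of 11 genes above siNeg. PPP1R15A, the regulatory subunit that directs protein phosphatase 1 to eIF2, stood at 64.5, 56.9 and 77.6 CPM in siNeg and 145, 93.7 and 118 CPM in siCIN85. Every siCIN85 library lay above every siNeg library. PPP1R15A rose by a log2FC of 0.85 ± 0.20 (1.80-fold, adjusted P = 0.0462, edgeR quasi-likelihood test). With the replicate block the adjusted P was 0.000556, and 0.0135 with the block in the knockdown alone. Without a block the adjusted P was 0.0635 when the 6 libraries of the experiment were fitted alone, 0.140 and 0.209 without siNeg replicates 1 and 2, and 0.239 and 0.124 without siCIN85 replicates 1 and 3. DESeq2 called PPP1R15A (adjusted P = 0.00469) and DDIT3 (0.049) in this comparison, beside 2.71% of all genes it tested.

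DDIT3, the transcription factor CHOP, stood at 13.2, 17.6 and 19.3 CPM in siNeg and 34.7, 19.1 and 33.5 CPM in siCIN85. Its siCIN85 replicate 2 lay within the siNeg range and the other siCIN85 libraries above it. The log2FC was 0.81 ± 0.22 with an adjusted P of 0.0910 in the edgeR test, 0.0149 with the replicate block and 0.0477 with the block in the knockdown alone. Of its last 500 exonic bases 13.6% lie opposite exons of MARS. ATF5 stood at 39.5, 28.6 and 22.9 CPM in siNeg and 53.6, 34.1 and 34.9 CPM in siCIN85, a log2FC of 0.43 ± 0.26 (adjusted P = 0.440, 0.0470 with the replicate block and 0.3085 with the block in the knockdown alone). Its groups overlapped, yet each siCIN85 library lay above the siNeg library of the same number. TRIB3 stood at 16.7, 18.1 and 14.3 CPM in siNeg and 31.3, 21.7 and 18.5 CPM in siCIN85, without overlap (log2FC 0.54 ± 0.20, adjusted P = 0.186).

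ATF4 itself, at 412, 537 and 504 CPM in siNeg and 517, 473 and 543 CPM in siCIN85, had a log2FC of 0.08 ± 0.14, and its libraries interleaved. CHAC1 (log2FC 0.61 ± 0.53), SESN2 (0.31 ± 0.26), CEBPB (0.25 ± 0.19), ATF3 (0.14 ± 0.22) and CEBPG (0.06 ± 0.15) lay above siNeg with adjusted P of 0.552 or more. DDIT4 was the 1 stress gene below siNeg, with 31.0, 25.7 and 26.0 CPM in siNeg and 12.4, 16.2 and 20.3 CPM in siCIN85. All 3 siCIN85 libraries lay below siNeg (log2FC -0.76 ± 0.42, adjusted P = 0.393).

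Amino acid synthesis, transport and tRNA synthetases lay close to siNeg, with class median log2FC of 0.029, 0.0077 and 0.084. The summed level of the synthetases was 1304 ± 71.9 CPM in siNeg and 1347 ± 38.02 CPM in siCIN85. The highest synthetase was GARS, with 106, 113 and 137 CPM in siNeg and 139, 118 and 157 CPM in siCIN85 (log2FC 0.22 ± 0.13), and the lowest was IARS, with 89.7, 104 and 91.9 CPM against 71.4, 109 and 73.9 CPM (log2FC -0.17 ± 0.15). Both overlapped between the groups. YARS, at 121, 124 and 116 CPM in siNeg and 146, 118 and 130.2 CPM in siCIN85, had a log2FC of 0.13 ± 0.11. Among the transporters SLC6A9 was highest (1.499, 3.42 and 1.04 CPM in siNeg, 3.40, 1.74 and 3.96 CPM in siCIN85; log2FC 0.61 ± 0.52) and SLC7A11 lowest (299, 252 and 197 CPM in siNeg, 198, 262 and 183 CPM in siCIN85; log2FC -0.22 ± 0.22). SLC3A2 had the 1 unadjusted P under 0.05 of the class (log2FC 0.33 ± 0.15, adjusted P = 0.311).

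ASS1 had the widest change of the enzymes. It stood at 17.5, 11.0 and 10.7 CPM in siNeg and 6.55, 5.49 and 7.39 CPM in siCIN85, each siCIN85 library below each siNeg library. The log2FC was -1.004 ± 0.30 with an adjusted P of 0.1198 in the edgeR test, 0.0159 with the replicate block and 0.0765 with the block in the knockdown alone. The other synthesis enzymes lay between -0.16 ± 0.13 for PHGDH (61.7, 77.2 and 57.0 CPM in siNeg, 58.2, 56.1 and 61.5 CPM in siCIN85) and 0.24 ± 0.17 for PSPH. PSPH, at 64.5, 71.6 and 73.7 CPM in siNeg and 75.7, 78.4 and 94.01 CPM in siCIN85, lay above siNeg in all 3 libraries, as it had lain above Mock in the other experiment. Of the further targets, VLDLR lay above siNeg without overlap (log2FC 0.48 ± 0.20, adjusted P = 0.267) and STC2 had a log2FC of 0.13 ± 0.18.

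**Figure D4:**
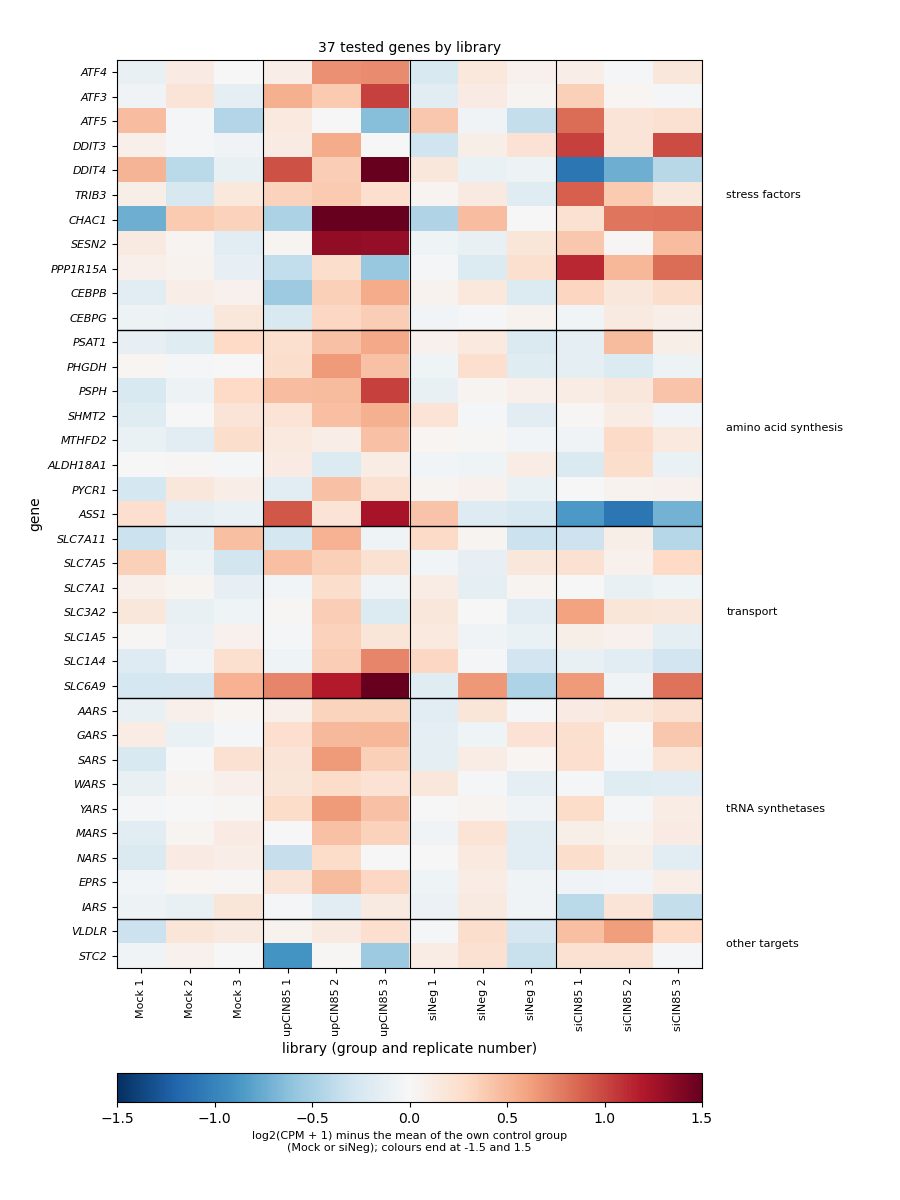
Heat map of the 37 tested genes (y axis, grouped by class) in the 12 libraries (x axis), coloured by log2(CPM + 1) minus the mean of the own control group, red above and blue below, with colours ending at 1.5 on either side. ASS1 and DDIT4 are red in upCIN85 and blue in siCIN85, PPP1R15A is red in siCIN85, and CHAC1 and SESN2 are red in upCIN85 replicates 2 and 3.

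Both experiments have their own controls, and 24 of the 37 genes lay above control in both, 8 above Mock and below siNeg, 4 below Mock and above siNeg, and 1 below both. Of all 12542 genes, 3323 lay above control in both, 3085 above Mock and below siNeg, 2845 below Mock and above siNeg, and 3289 below both. Whether the effects differed was tested as the upCIN85 log2FC minus the siCIN85 log2FC. The median of this difference was 0.18 over the 37 genes and 0.010 over all genes, and 1 gene passed, beside 0.973% of all genes. At an unadjusted P of 0.05, 7 differences were positive (6.94% of all genes) and 2 negative (7.56% of all genes). The median was 0.29 without upCIN85 replicate 1. With the replicate block 6 passed (ASS1, DDIT4 and PHGDH positive, PPP1R15A, ATF5 and STC2 negative), beside 7.32% of all genes. That block also pairs Mock with upCIN85, which was not taken as paired. With the block in the knockdown alone 3 passed (ASS1 and DDIT4 positive, PPP1R15A negative), beside 2.93% of all genes.

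The gene that passed without a block was ASS1, higher in upCIN85 than in Mock and lower in siCIN85 than in siNeg, with a difference of 1.90 ± 0.39 on the log2 scale (adjusted P = 0.0321, edgeR quasi-likelihood test). With the block the adjusted P was 0.000908, and 0.0124 with the block in the knockdown alone. Without a block it was 0.0870 and 0.0736 without Mock replicates 2 and 3, 0.0705 and 0.0990 without upCIN85 replicates 1 and 3, 0.0748 without siNeg replicate 1, and 0.0848 and 0.0625 without siCIN85 replicates 1 and 2. The ASS1 direction was the same in every one of these fits. ASS1 rests on few reads, and its siCIN85 libraries were the lowest of all 12. DDIT4 had the largest difference of the 37 genes (2.248 ± 0.56, adjusted P = 0.0673, 0.00235 with the block and 0.0410 with the block in the knockdown alone). PPP1R15A had the most negative one (-1.03 ± 0.27, adjusted P = 0.0794, 0.00165 with the block and 0.0328 with the block in the knockdown alone). DESeq2 called the differences of ASS1 (adjusted P = 0.00268) and PPP1R15A (0.0269), beside 2.09% of all genes it tested. CHAC1 had a difference of 1.22 ± 0.73 (adjusted P = 0.478). The 9 synthetases had differences between -0.08 and 0.35, and the lowest adjusted P among them was 0.267. PHGDH had a difference of 0.62 ± 0.19 (adjusted P = 0.118, and 0.0334 with the block), ATF5 of -0.61 ± 0.37 (0.477, and 0.0432 with the block) and STC2 of -0.56 ± 0.25 (0.317, and 0.0180 with the block). With the block in the knockdown alone these adjusted P were 0.0802, 0.319 and 0.175, so that the calls of PHGDH, ATF5 and STC2 rested on the block in Mock and upCIN85 as well.

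The control groups, siNeg and Mock, differ in the kind of transfection, in selection and in experiment at once, which cannot be told apart. Between them 22 of the 37 genes lay higher in siNeg (50.5% of all genes) and 15 lower, with a median log2FC of 0.034 (all genes 0.0027), and 0 passed the adjusted threshold in edgeR, where 0.526% of all genes did. At an unadjusted P of 0.05, 2 were higher (6.77% of all genes) and 2 lower (5.67% of all genes). DESeq2 called 2, CEBPB higher (adjusted P = 0.0166) and SLC7A5 lower (0.0125), beside 1.83% of all genes it tested. Libraries lay apart upward for 4 (9.48% of all genes) and downward for 4 (9.94% of all genes). The median turned to -0.0013 without Mock replicate 1, -0.0051 without siNeg replicate 1 and -0.0027 without siNeg replicate 2, and was 0.13 without Mock replicate 3 and 0.16 without siNeg replicate 3. Stress factors had a median of 0.34, led by CEBPB, a bZIP partner of ATF4, at 68.9, 82.3 and 80.5 CPM in Mock and 136, 146 and 113 CPM in siNeg (log2FC 0.77 ± 0.19, adjusted P = 0.0866). SLC7A5 was lowest, at 242, 227 and 279 CPM in siNeg beside the Mock levels given above (log2FC -0.56 ± 0.14, adjusted P = 0.0796). In ATF4 all 3 siNeg libraries lay above Mock, the lowest by 412 against 411 CPM (log2FC 0.36 ± 0.14, adjusted P = 0.298). The siNeg libraries of ATF4 thus reached levels between Mock and the higher upCIN85 libraries. PSAT1 (log2FC -0.52 ± 0.16) and MTHFD2 (-0.24 ± 0.12) lay below Mock in all 3 siNeg libraries.

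The other genes of the pathway are given first as counts from the edgeR test without a block. The eIF2 kinases with eIF2 and its exchange factor eIF2B set how much ATF4 protein is made, and were listed together with PPP1R15B, OMA1 and DELE1. This list of 15 genes had median log2FC of 0.06 in upCIN85 and -0.021 in siCIN85, with 0 past the adjusted threshold in edgeR in either comparison. At an unadjusted P of 0.05 only 1 was higher, in siCIN85. Of all genes, 6.64% were higher and 7.85% lower at that P in upCIN85, and 7.55% higher and 8.15% lower in siCIN85. Past the adjusted threshold were 1.23% and 1.04% of all genes. These shares also stand beside the lists below. The 14 remaining cytosolic synthetases and scaffold proteins had medians of 0.06 and 0.011, and the 17 mitochondrial synthetases 0.11 and -0.00069. In both lists 0 genes passed the adjusted threshold in edgeR in either comparison. At an unadjusted P of 0.05 the remaining cytosolic synthetases had 1 higher and 1 lower in upCIN85 and 1 higher in siCIN85. The mitochondrial ones had 0 higher and 3 lower in upCIN85 and 1 higher and 2 lower in siCIN85. Of the 17 mitochondrial synthetases 12 lay above Mock. Their upCIN85 libraries lay entirely above Mock for 6 genes (9.74% of all genes) and entirely below for 3 (11% of all genes). The 9 cytosolic synthetases described above thus had a higher median in upCIN85 (0.27) than either other synthetase list, a difference that was not tested. Members and lists were chosen with earlier results of these data known, so this comparison cannot tell a trait of the genes from the choice. Of 16 tested further enzymes of one-carbon, proline and glutamine metabolism, 0 passed in edgeR in either comparison, with 1 higher in upCIN85 and 1 lower in siCIN85 at an unadjusted P of 0.05. The chaperone arm of ATF6 and XBP1, a separate branch of the unfolded protein response, lay mostly below control in both: 15 of 17 genes in upCIN85 (median -0.086) and 14 of 17 in siCIN85 (median -0.12). Of these, 0 passed the adjusted threshold in edgeR and 3 were lower at an unadjusted P of 0.05 in each comparison. With the replicate number as a block, siCIN85 versus siNeg gave 1 call in the remaining cytosolic synthetases, FARSA, a phenylalanyl-tRNA synthetase subunit (log2FC 0.30, adjusted P = 0.0489), and 1 in the chaperone arm, SEL1L, of endoplasmic reticulum degradation (log2FC -0.32, adjusted P = 0.0426). Both were named after their values were seen and neither passed with the block in the knockdown alone. The eIF2, mitochondrial and one-carbon lists had 0 calls with the block in that comparison (lowest adjusted P 0.0581, 0.0504 and 0.129), where 7.72% of all genes passed.

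Among 29 tested further ATF4 targets, 2 rose in upCIN85 and 1 in siCIN85 past the adjusted threshold without a block, where 1.23% and 1.04% of all genes passed. Of the 29, 19 and 20 lay above control, with median log2FC of 0.074 and 0.097. At an unadjusted P of 0.05, 8 were higher and 2 lower in upCIN85 (6.64% and 7.85% of all genes). In siCIN85 4 were higher and 0 lower (7.55% and 8.15% of all genes). GPT2, the mitochondrial alanine aminotransferase, stood at 62.1, 53.8 and 62.4 CPM in Mock and 73.1, 114 and 128 CPM in the libraries labelled upCIN85. It rose by a log2FC of 0.82 ± 0.17 without overlap (adjusted P = 0.0229, edgeR), though the adjusted P was 0.0572, 0.147 and 0.0855 without Mock replicates 1, 2 and 3 and 0.159 without upCIN85 replicate 3. INHBE, an inhibin subunit, stood at 2.45, 2.21 and 3.16 CPM in Mock and 2.62, 10.8 and 21.3 CPM in upCIN85 (log2FC 2.14 ± 0.50, adjusted P = 0.0452, edgeR). Its replicate 1 again lay at the Mock level. The adjusted P of INHBE was 0.118, 0.186 and 0.133 without Mock replicates 1, 2 and 3, 0.0548 and 0.285 without upCIN85 replicates 2 and 3, and 0.0565 with the 6 libraries fitted alone. SLC43A1, a neutral amino acid carrier, stood at 20.2, 20.04 and 19.0 CPM in siNeg and 41.0, 33.0 and 38.8 CPM in siCIN85, nearly 2-fold apart (log2FC 0.93 ± 0.19, adjusted P = 0.0271, edgeR). The adjusted P of SLC43A1 was 0.0992, 0.112 and 0.0518 without siNeg replicates 1, 2 and 3 and 0.155 and 0.0974 without siCIN85 replicates 1 and 3. In upCIN85 versus Mock SLC43A1 had a log2FC of 0.04 ± 0.19.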

How the data were processed

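RNA-seq was made from HOS cells in 4 groups of 3 libraries with a 3′ end kit and single-end sequencing. The deposited values are raw counts per gene, made by the authors with featureCounts, without normalization. The submitters' processing notes name FastQC, cutadapt 4.3, STAR 2.7.3a, Picard 2.25.6, MultiQC 1.10.1, Subread 2.0 and GRCh38. The annotation release, the strand setting and any collapsing of molecular identifiers are not given in the sources used here. Symbols come from GENCODE 29, in which 95 of 25141 identifiers had no match.

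In R 4.3.3, edgeR 4.0.16 fitted 4 group means to all 12 libraries (filterByExpr, minimum count 10 and minimum total 15, 12542 genes, TMM, 8 residual degrees of freedom) with a quasi-likelihood test, two-sided, adjusted by the Benjamini-Hochberg method over all genes tested. For the SE, the size of the log2FC was divided by the root of its F statistic. An exact permutation test of 3 against 3 cannot go below P = 0.1. No label says that libraries come from separate cultures, so P-values measure the spread between these libraries, which may be technical. No library was a duplicate of another.

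Replicate numbers are shared between groups. Deviations from the group means correlated between same-numbered siNeg and siCIN85 libraries (r = 0.353, 0.269 and 0.446 across genes), so these were taken as paired, as a pattern in the data and not from the labels. In Mock and upCIN85 r was 0.326, 0.227 and 0.0989, which was not taken as pairing. The highest of these (0.326) exceeds the lowest r taken as pairing (0.269), so r alone does not separate the experiments. The choice was a judgment, and counts with the block are given for both experiments.

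Genes named with values in every library were those past the adjusted threshold in any contrast with or without the block, the highest and lowest of each class in both experiments, and SH3KBP1, and some others of the 38 were added after their values were seen. Genes of the other pathway lists were named where they passed without a block, and those named from a blocked fit were added after their values were seen. Members and lists were chosen with earlier results of these data known. Alternatives were the 6 libraries of a comparison alone, RLE normalization, other count filters, the replicate block, DESeq2 1.42.0 and leaving out each library. Promoter sequences are from RefSeq, and members without an entry there are PSPH, SHMT2, PYCR1, SLC7A11 and YARS. The fits were tested on simulated data.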

Additional observations from a re-analysis of the deposited data

How the results depend on the processing

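The directions of the members' median log2FC in upCIN85 versus Mock, in siCIN85 versus siNeg and in their difference held under every alternative, whereas the numbers of genes past the adjusted threshold did not. Shares in parentheses are those of all genes tested in the same fit. For upCIN85 versus Mock (1 gene) the number was 2 (2.28%) with the 6 libraries alone, 12 (2.53%) without a filter on low counts and 5 (2.15%) with DESeq2, and 0 to 5 when 1 library was left out, with a median of 0.23 to 0.34. For siCIN85 versus siNeg (1 gene) it was 0 (0.424%) with the 6 libraries alone, 4 (2.45%) without a filter and 2 (2.71%) with DESeq2, and 0 to 2 when 1 library was left out, with a median of 0.084 to 0.15. For siNeg versus Mock (0 genes) it was 1 (0.761%) with the 6 libraries alone, 3 (1.5%) without a filter and 2 (1.83%) with DESeq2, and 0 for each library left out, where the median ranged from -0.0051 to 0.16 and reversed to -0.0013 without Mock replicate 1, -0.0051 without siNeg replicate 1 and -0.0027 without siNeg replicate 2. For the difference (1 gene) it was 5 (2.20%) without a filter and 2 (2.09%) with DESeq2, and 0 to 4 when 1 library was left out, with a median of 0.13 to 0.29.

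With the replicate number as a block within each experiment the number was 17 for upCIN85 versus Mock (16 higher, 1 lower, beside 8.25% of all genes), 4 for siCIN85 versus siNeg (7.72%) and 6 for the difference (7.32%). For siNeg versus Mock the block joined same-numbered libraries of all 4 groups, and 0 passed (0.909%). Deviations of same-numbered Mock and siNeg libraries had r of 0.0751, 0.180 and -0.0600, which was not taken as pairing. With the replicate block in the knockdown alone it was 2 for siCIN85 versus siNeg (3.42%) and 3 for the difference (2.93%). In the other pathway lists the block in upCIN85 versus Mock called 8 further ATF4 targets, CARS and ALDH1L2 higher and NARS2 and HYOU1 lower. In Mock and upCIN85 every library correlated best with its own number, a hint from the data and not from the design.

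Over 101 gene values, which were all 37 members in both experiments and the others given with a fold change, 1123 of 1305 alternative values kept direction and side of the threshold, 83 passed it newly, 56 lost it and 43 reversed. All 43 were in 21 gene values within 0.20 of 0 on the log2 scale and not past the threshold. Besides leaving out a library, the sign turned for NARS in upCIN85 with at least 10 counts in every library (0.0035), for EPRS in siCIN85 without a filter (-0.013) and with DESeq2 (-0.0027), and for SLC1A5 in siCIN85 without a filter (-0.0074). With 1 library left out, log2FC that turned ranged in upCIN85 from -0.041 to 0.12 for ALDH18A1, -0.37 to 0.092 for ATF5, -0.032 to 0.46 for CEBPB, -0.099 to 0.085 for IARS, -0.17 to 0.14 for NARS, -0.096 to 0.20 for SLC3A2, -0.051 to 0.12 for SLC7A1, -0.20 to 0.33 for SLC7A11, -0.011 to 0.24 for VLDLR, -0.21 to 0.22 for SLC43A1 and -0.011 to 0.15 for SH3KBP1. In siCIN85 they ranged from -0.17 to 0.092 for ALDH18A1, -0.0042 to 0.21 for ATF3, -0.030 to 0.15 for ATF4, -0.055 to 0.052 for EPRS, -0.042 to 0.17 for NARS, -0.045 to 0.28 for PSAT1, -0.022 to 0.057 for PYCR1, -0.071 to 0.13 for SHMT2, -0.047 to 0.084 for SLC1A5 and -0.027 to 0.23 for STC2. The cause was not tested. The precision is limited by 3 libraries per group and, for SLC6A9, ASS1 and ATF3, by low counts.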
